A study of Homo sapiens with 16 samples.

Results

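The respiratory chain of the inner mitochondrial membrane is built from the products of 2 genomes, and its genes were followed here as a group in mesenchymal triple-negative breast cancer (TNBC) cells that differ in Wnt reporter activity. Members were defined by gene symbol, and they were chosen with earlier results of these data known. They were the protein-coding NDUFA, NDUFB, NDUFC, NDUFS and NDUFV genes without the NDUFAF assembly factors, and the UQCR genes with CYC1. SDHA to SDHD, the COX4I, COX5, COX6, COX7 and COX8 genes, and the 13 protein-coding genes of mitochondrial DNA were members as well. By symbol this gave 84 genes, 71 nuclear and 13 mitochondrial, among 19404 protein-coding genes of the 57820 genes measured. Of these, 79 reached 10 counts in total in each serum condition. They were tested among 16069 protein-coding genes in low serum and 15414 in standard serum. They were 66 nuclear genes (37 of complex I, 4 of complex II, 10 of complex III and 15 of complex IV) and all 13 mitochondrial genes. The other 5, NDUFC2-KCTD14, COX4I2, COX6A2, COX7A1 and COX8C, summed to 0 to 9 counts in each serum condition and were not tested.

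As background, complex I (NADH dehydrogenase) and complex II (succinate dehydrogenase) pass electrons to ubiquinone, complex III passes them to cytochrome c, and complex IV (cytochrome c oxidase) passes them to oxygen, while complexes I, III and IV pump the protons that drive ATP synthase. Mitochondrial DNA encodes membrane core subunits of complexes I, III and IV and a pair of ATP synthase subunits, and their RNAs are cut from long transcripts made inside the organelle. The other subunits, and all of complex II, are nuclear genes spread over the chromosomes, and nuclear respiratory chain promoters are known for sites of NRF1, ETS-family factors and YY1.

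MDA-MB-231 cells and MDA-MB-436 cells, both established lines, carried the 7TGP reporter, in which Tcf/Lef binding sites drive eGFP, and cells were sorted repeatedly by brightness to give a 7TGP-positive and a 7TGP-negative subline of each. Each of the 4 sublines was profiled by bulk RNA-Seq as 2 biological replicates in low serum (0.5% FBS, day 3) and 2 in standard serum (10% FBS, day 6), which makes 8 groups and 16 libraries. Per the methods, RNA from low serum was depleted of ribosomal RNA and RNA from standard serum was selected for polyadenylated transcripts, with another sequencer for each, whereas the labels name 1 kit throughout. Serum, days in culture and library preparation therefore cannot be told apart, and values from the serum conditions are set side by side with no test between them. Totals were 27918418 to 32667756 counts per library in low serum and 31827130 to 46044073 in standard serum. The mesenchymal marker VIM stood at 650.0 to 5725 CPM, and in 7TGP-positive MDA-MB-231 cells it was lower in both serum conditions (log2 fold changes -1.05 and -1.03). Of the other mesenchymal markers, CDH2 did not pass 1.80 CPM and TWIST1 did not pass 0.0820 CPM in any MDA-MB-231 library. In the MDA-MB-436 libraries they stood at 131.6 to 243.1 and 21.85 to 33.96 CPM. ZEB1 (108.0 to 170.5 CPM), FN1 (365.4 to 1833 CPM) and SNAI2 (15.88 to 29.75 CPM) were expressed in the MDA-MB-231 libraries. There SNAI2 was higher in 7TGP-positive cells in both serum conditions (log2 fold changes 0.665 and 0.703), and FN1 was lower in standard serum (-2.137). In MDA-MB-436 cells SNAI2, at 1.07 to 3.85 CPM, was lower in 7TGP-positive cells in low and standard serum (-0.679 and -0.76), and FN1 was higher (1.372 and 0.662). Of the 7 epithelial markers, CDH1 did not pass 0.450 CPM in any library. In the MDA-MB-231 libraries CLDN4 stood at 38.02 to 71.0 CPM, CLDN7 at 43.97 to 96.0 CPM and EPCAM at 7.53 to 9.96 CPM. Of the leukocyte markers CD3E did not pass 0.0750 CPM, whereas CD14 and PTPRC were detected, and PTPRC rose from 2.07 and 2.31 CPM in 7TGP-negative to 4.68 and 4.96 CPM in 7TGP-positive MDA-MB-231 cells in low serum. The part of such markers in the results was not tested. AXIN2, a Wnt target, was at 9.03 and 10.4 CPM in the 7TGP-negative and 15.3 and 15.2 CPM in the 7TGP-positive MDA-MB-231 libraries in low serum, and at 1.89 and 1.41 against 1.44 and 1.58 CPM in MDA-MB-436 cells in standard serum, which was not called. Of the 6 Wnt target genes listed as a check of the reporter, 3 were higher and none lower in MDA-MB-231 cells and 2 higher and 1 lower in MDA-MB-436 cells in low serum, against 1 and 0, and 1 and 1, in standard serum. In the last of these LEF1 was higher, at 13.5 and 13.1 against 25.6 and 24.0 CPM, and RNF43 was lower, at means of 0.263 against 0.0485 CPM. CPM are read counts scaled to the library size with TMM factors, and replicate 1 is given before replicate 2 throughout. A gene is called where its adjusted p (edgeR's quasi-likelihood test, Benjamini-Hochberg over all genes tested) was under 0.05, and a differentially expressed gene (DEG) is a called gene whose log2 fold change was 1 or more in size.

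The 2 genomes differed first in how far replicates lay apart. The 13 mitochondrial genes together took 0.365% to 1.01% of the tested counts in low serum and 0.746% to 1.79% in standard serum. Their summed level in low serum was 7793 and 10490 CPM in 7TGP-negative and 6665 and 3774 CPM in 7TGP-positive MDA-MB-231 cells. In MDA-MB-436 cells it was 5891 and 4780 CPM in 7TGP-negative and 5264 and 7083 CPM in 7TGP-positive cells. The MDA-MB-231 groups did not overlap, both 7TGP-positive libraries lying below both 7TGP-negative ones, whereas the MDA-MB-436 groups overlapped. In standard serum the sums were 8281 and 15980 CPM in 7TGP-negative and 11630 and 18660 CPM in 7TGP-positive MDA-MB-231 cells. They were 13560 and 14750 CPM in 7TGP-negative and 13960 and 8987 CPM in 7TGP-positive MDA-MB-436 cells, so the reporter groups overlapped in each line. Replicates of a group could lie as far apart as the reporter groups: the median mitochondrial gene differed 1.96-fold between the replicates of 7TGP-positive MDA-MB-231 cells in low serum and 2.04-fold between those of 7TGP-negative MDA-MB-231 cells in standard serum. In 6 of the 8 groups all 13 mitochondrial genes lay the same way between the replicates, and the exceptions were the 7TGP-positive MDA-MB-436 cells in low serum and the 7TGP-negative MDA-MB-436 cells in standard serum.

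Nuclear members lay closer together, the median gene differing 1.04-fold to 1.12-fold between replicates in the 8 groups. The summed level of the 66 nuclear genes in low serum was 4048 and 4086 CPM in 7TGP-negative and 4155 and 4279 CPM in 7TGP-positive MDA-MB-231 cells. It was 7219 and 7637 CPM in 7TGP-negative and 6694 and 6111 CPM in 7TGP-positive MDA-MB-436 cells. In standard serum it was 5388 and 5424 CPM in 7TGP-negative and 5560 and 5269 CPM in 7TGP-positive MDA-MB-231 cells. It was 9288 and 8643 CPM in 7TGP-negative and 7021 and 7361 CPM in 7TGP-positive MDA-MB-436 cells. In both serum conditions every MDA-MB-436 library lay above every MDA-MB-231 library, and the 7TGP-positive MDA-MB-436 libraries lay below the 7TGP-negative ones. In low serum the latter gap rested on SDHA and NDUFS6. SDHA stood at 854 and 846 CPM in 7TGP-negative against 447 and 432 CPM in 7TGP-positive MDA-MB-436 cells, and NDUFS6 at 186 and 194 against 58.6 and 46.6 CPM. Without SDHA and NDUFS6 the low serum sums of these groups would overlap. On the TPM scale, which is per transcript length, the mitochondrial sum exceeded the nuclear sum in every library. In low serum 7TGP-negative MDA-MB-231 cells held 16640 and 22620 mitochondrial against 4740 and 4880 nuclear TPM. In standard serum 7TGP-negative MDA-MB-436 cells held 54370 and 59140 against 19240 and 18020 TPM. Counts on nuclear copies of mitochondrial genes came to 2.24% to 3.19% of the mitochondrial counts in low serum and 0.739% to 1.88% in standard serum. The mitochondrial ribosomal RNAs MT-RNR1 and MT-RNR2 together stood at 67.8 to 254 CPM in low serum, where ribosomal RNA was depleted, and at 1707 to 5770 CPM in standard serum.

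**Figure D1:**
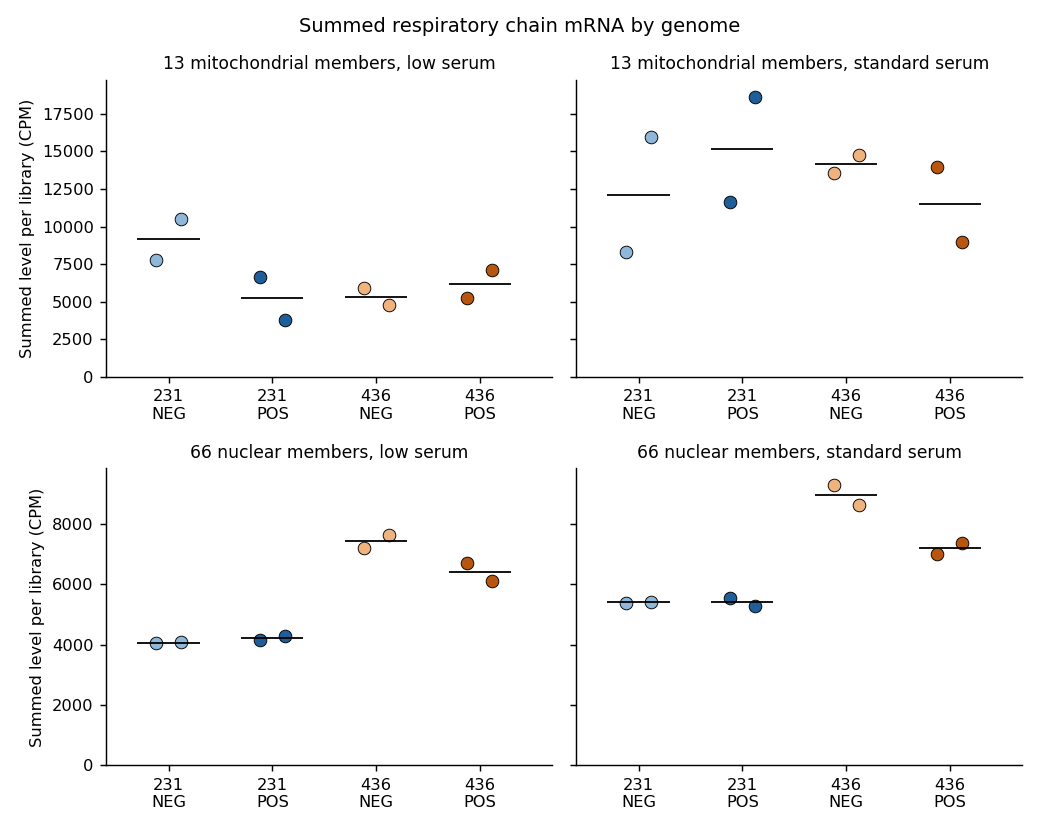
Summed level (CPM, y axis from 0) of the 13 mitochondrial genes (top) and the 66 nuclear genes (bottom) in each library, named by cell line, with NEG and POS for 7TGP-negative and 7TGP-positive, replicate 1 at the left of each pair and a bar at the mean. Mitochondrial sums in low serum run from 3774 to 10490 CPM with wide gaps between replicates, whereas nuclear sums form tight pairs, from 4048 CPM in MDA-MB-231 to 7637 CPM in MDA-MB-436.

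Within the mitochondrial set, the shares of several genes in the RNA of standard serum separated the cell lines, which per the methods were also kept in different media. MT-CO2, subunit 2 of complex IV, held 20.1% to 21.3% of the 13 genes' counts in the MDA-MB-231 libraries and 11.4% to 14.6% in the MDA-MB-436 libraries. The complex I subunit MT-ND1 lay the other way, with 2.05% to 2.42% in MDA-MB-231 and 4.71% to 5.67% in MDA-MB-436. The complex I subunit MT-ND5 held 1.73% to 2.12% against 3.99% to 4.98%, and MT-CYB, the cytochrome b of complex III, held 1.95% to 2.66% against 3.65% to 5.31%. None of these 4 ranges overlapped between the lines, and the same held for MT-ND2, MT-ND4, MT-ATP6 and, narrowly, MT-CO3 (up to 15.84% in MDA-MB-231 and from 15.88% in MDA-MB-436). The shares of MT-CO1, MT-ATP8, MT-ND3, MT-ND4L and MT-ND6 overlapped. In low serum the share of MT-CO2 was 5.21% to 5.49% in MDA-MB-231 and 3.38% to 4.49% in MDA-MB-436. That of MT-CYB was 2.42% to 2.77% against 3.00% to 3.29%. The shares of MT-ATP6, MT-ATP8 and MT-CO3 did not overlap there either. Those of MT-ND1, MT-ND2, MT-ND4 and MT-ND5 overlapped, MT-ND5 at 3.66% to 4.77% and 4.41% to 4.93%. MT-CO1, subunit 1 of complex IV, took the largest share of counts in every library, 37.7% to 45.3% in low serum and 26.9% to 32.8% in standard serum. MT-ND6, the member read from the opposite strand to the others, held 0.361% to 0.688% in low serum and 0.0929% to 0.177% in standard serum. These shares are a description with no test, they are not per length, and MT-ATP8 shares 22.2% of its exon bases with MT-ATP6 on the same strand.

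**Figure D2:**
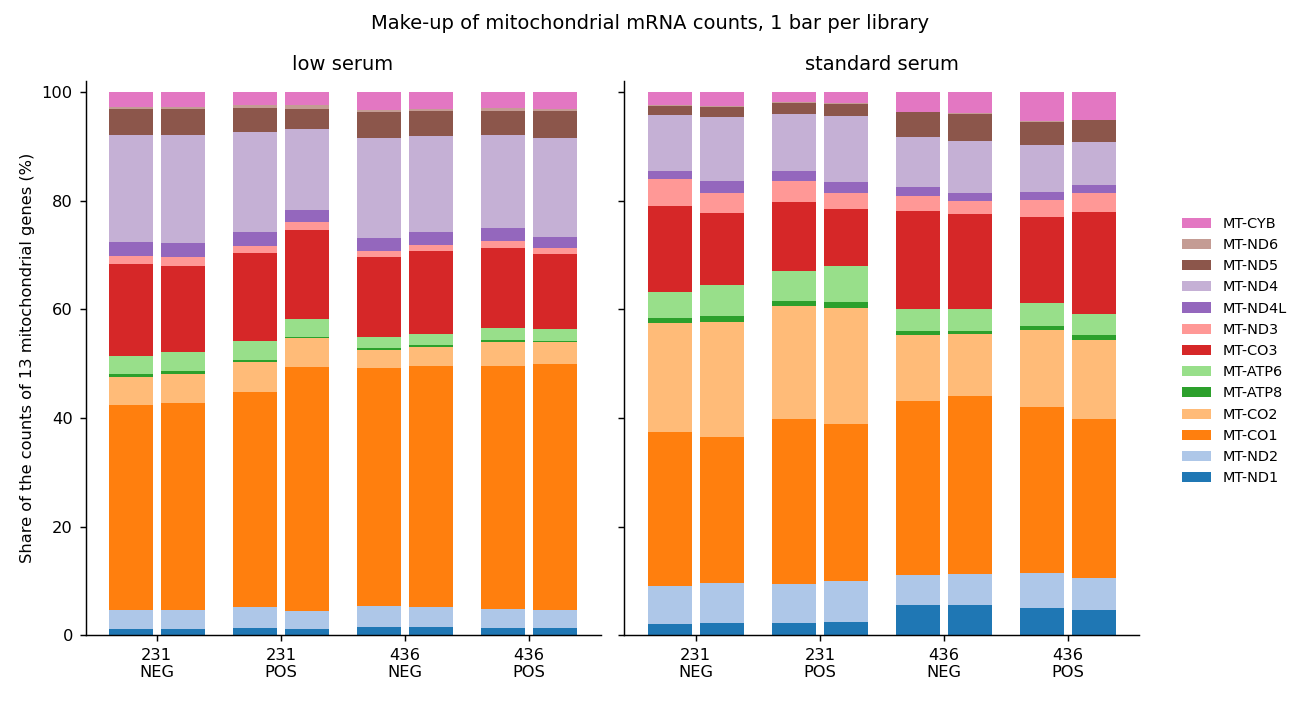
Share of each gene in the counts of the 13 mitochondrial genes (percent, y axis from 0 to 100), 1 bar per library with replicate 1 at the left of each pair. In standard serum the MT-CO2 band is 20.1% to 21.3% in MDA-MB-231 and 11.4% to 14.6% in MDA-MB-436, while the MT-ND1 and MT-ND5 bands are wider in MDA-MB-436.

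Comparing 7TGP-positive with 7TGP-negative cells asks which genes go with Wnt reporter activity. Each line gave a single pair of sorted sublines, so reporter activity cannot be told apart from any other difference between the sublines of a pair. In MDA-MB-231 cells the nuclear respiratory chain did not move as a body, and the mitochondrial genes gave no call. In low serum 12 of 66 nuclear genes were higher and 7 lower in 7TGP-positive cells, where 19.0% of all genes tested were higher and 19.9% lower, and none was a DEG, against 5.90% of all genes. Of the nuclear genes 37 of 66 had a log2 fold change above 0, and their median was 0.015 against -0.014 over all genes. Without replicate 1 of the 7TGP-negative cells, 11 nuclear genes were called instead of 19. On the deposited TPM, tested as log2(TPM + 1) with limma, 2 nuclear genes were higher and 17 lower, and 20.6% of the calls over all genes were higher instead of 49.0%. In standard serum 8 of 66 were higher and 6 lower, against 16.8% and 16.2% of all genes, with no DEG against 7.69% of all genes, and the median was -0.002 against 0.00. Without replicate 2 of the 7TGP-positive cells, 8 nuclear genes were called instead of 14. Taken by complex, low serum gave 3 higher and 5 lower genes of complex I, 2 and 0 of complex II, 3 and 2 of complex III, and 4 and 0 of complex IV.

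All 13 mitochondrial genes lay below 0 in MDA-MB-231 cells in low serum, with a median log2 fold change of -0.826, and none was called. The largest difference was that of MT-ND3, a complex I subunit, at 125 and 168 CPM in 7TGP-negative and 88.1 and 52.2 CPM in 7TGP-positive cells, a log2 fold change of -1.06 (SE 0.311, adjusted p = 0.0616). It alone had an unadjusted p under 0.05 with edgeR, whereas DESeq2's Wald test called 3 genes lower, with 9 at an unadjusted p under 0.05. The result rested on single libraries: without replicate 1 of the 7TGP-positive cells 4 genes were called and the median was -1.40, and without replicate 2 of those cells the median was -0.450. In standard serum the mitochondrial genes of the same line lay mostly the other way, 11 of 13 above 0 with a median of 0.376 and no call with edgeR, no unadjusted p under 0.05 and no call with DESeq2. That median ran from -0.093 to 0.957 when single libraries were left out. It was -0.084 without replicate 1 and 0.957 without replicate 2 of the 7TGP-negative cells and -0.093 without replicate 2 of the 7TGP-positive cells.

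Nuclear genes that were higher in 7TGP-positive MDA-MB-231 cells in both serum conditions numbered 7: NDUFA1, NDUFS3, NDUFS6, SDHA, SDHD, COX7B and COX7B2. NDUFA1, a small X-linked subunit of complex I, stood in low serum at 36.1 and 38.1 CPM in 7TGP-negative and 57.2 and 55.3 CPM in 7TGP-positive cells (log2 fold change 0.60, SE 0.0779, adjusted p = 1.4e-06). In standard serum it stood at 73.3 and 70.8 CPM against 124 and 118 CPM (log2 fold change 0.74, adjusted p = 4.72e-07). COX7B, an X-linked subunit of complex IV, was at 52.5 and 46.8 against 66.7 and 73.8 CPM in low serum and at 70.4 and 75.1 against 122 and 113 CPM in standard serum, log2 fold changes of 0.50 and 0.69. The groups of both genes did not overlap in either serum condition, which adds no support, as both were named partly for their low adjusted p here. NDUFS3, a core subunit of the matrix arm of complex I, had log2 fold changes of 0.36 and 0.32 in low and standard serum, and SDHD, a membrane anchor of complex II, of 0.42 and 0.38. In the opposite direction NDUFB6 and NDUFA8, accessory subunits of complex I, were lower in both serum conditions. NDUFB6 was at 48.3 and 48.4 against 38.6 and 38.5 CPM in low serum (log2 fold change -0.33), and its log2 fold change in standard serum was -0.49. For NDUFA8 the log2 fold changes were -0.37 and -0.38. The calls of NDUFA1, COX7B, NDUFB6 and NDUFA8 held under every alternative tried, whereas NDUFS6 in low serum (log2 fold change 0.33) lost its call without replicate 1 of the 7TGP-negative cells and without either 7TGP-positive library. In standard serum NDUFS3 lost its call without replicate 1 of either group, SDHD without replicate 2 of the 7TGP-positive cells, SDHA without replicate 2 of the 7TGP-negative or replicate 1 of the 7TGP-positive cells, and COX7B2 without any 1 of the 4 libraries.

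MDA-MB-436 cells differed: nuclear respiratory chain genes were more often lower than higher in 7TGP-positive cells. In low serum 28 of 66 were lower and 9 higher, where 25.3% of all genes were lower and 26.6% higher, and in standard serum 29 were lower and 4 higher, against 23.4% and 26.1% of all genes. The median log2 fold change of the 66 genes was -0.169 in low serum and -0.210 in standard serum, against 0.014 and 0.005 over all genes tested, and 17 of 66 lay above 0 in each. With COX7B2 left out, which is at the floor of 3 counts per library in this line, the medians were -0.163 and -0.213. Called in the same direction in both serum conditions were 21 lower genes and 1 higher gene, NDUFA10. In low serum 19 genes of complex I were lower and 5 higher, 1 and 1 of complex II, 2 and 2 of complex III, and 6 and 1 of complex IV. The corresponding counts in standard serum were 15 and 3, 2 and 0, 5 and 0, and 7 and 1. On the TPM scale 42 nuclear genes were lower and 0 higher in low serum, where 23.1% of the calls over all genes were higher instead of 51.2%, and 24 lower and 9 higher in standard serum, where 63.1% were higher instead of 52.8%. NDUFS6 alone was a DEG in low serum, where 10.5% of all genes were, and in standard serum, where 12.5% of all genes were, NDUFS6 and SDHA were lower and NDUFA4L2 and NDUFA7 higher DEGs.

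Nuclear members also lay together between replicates in most groups of this line. In low serum 54 of 66 had the higher level in replicate 2 of the 7TGP-negative cells, with a median log2 ratio of replicate 1 to replicate 2 of -0.093, and 59 of 66 in replicate 1 of the 7TGP-positive cells, with a median of 0.151. In standard serum 53 of 66 had it in replicate 1 of the 7TGP-negative cells, with a median of 0.101. The 7TGP-positive cells of standard serum were split, 28 members being higher in replicate 1 and 38 in replicate 2, with a median of -0.025. These gaps were smaller than the median of the reporter comparison in standard serum (-0.21). In low serum the gaps between replicates approached that median (-0.169). Without replicate 2 of the 7TGP-negative cells 24 nuclear genes were called instead of 37 and the median was -0.067, and without replicate 1 of the 7TGP-positive cells it was -0.284. In standard serum the median was -0.345 without replicate 2 of the 7TGP-positive cells, which was the higher replicate for NDUFS7, a core subunit of complex I, at 24.9 and 60.9 CPM, and for NDUFB7, at 35.2 and 67.7 CPM. Neither of these genes was called there, with adjusted p = 0.239 and 0.173, although both were lower in low serum, with log2 fold changes of -0.38 and -0.37. The 64 nuclear members outside the short arm of chromosome 5 gave 26 lower and 9 higher genes with a median of -0.153 in low serum, and 27 lower and 4 higher genes with a median of -0.205 in standard serum, a selection made after the values were seen, as were NDUFS7, NDUFA9 and COX5A among the genes named here.

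Mitochondrial genes of MDA-MB-436 cells were not called in either serum condition. In low serum all 13 lay above 0 with a median log2 fold change of 0.146, no unadjusted p under 0.05 and a lowest adjusted p of 0.345. In standard serum 3 of 13 lay above 0 with a median of -0.267, no unadjusted p under 0.05 and a lowest adjusted p of 0.379. DESeq2 called none in either, with no unadjusted p under 0.05. The low serum median was -0.067 on the TPM scale, -0.077 without replicate 2 of the 7TGP-positive cells, 0.007 without replicate 2 of the 7TGP-negative cells, and 0.314 and 0.374 without the replicate 1 of each group. The standard serum median was -0.647 without replicate 1 and 0.033 without replicate 2 of the 7TGP-positive cells. The standard errors of these genes limit what could be seen: their median was 0.401 in low serum and 0.518 in standard serum, against 0.0650 and 0.0850 for the nuclear members.

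**Figure D3:**
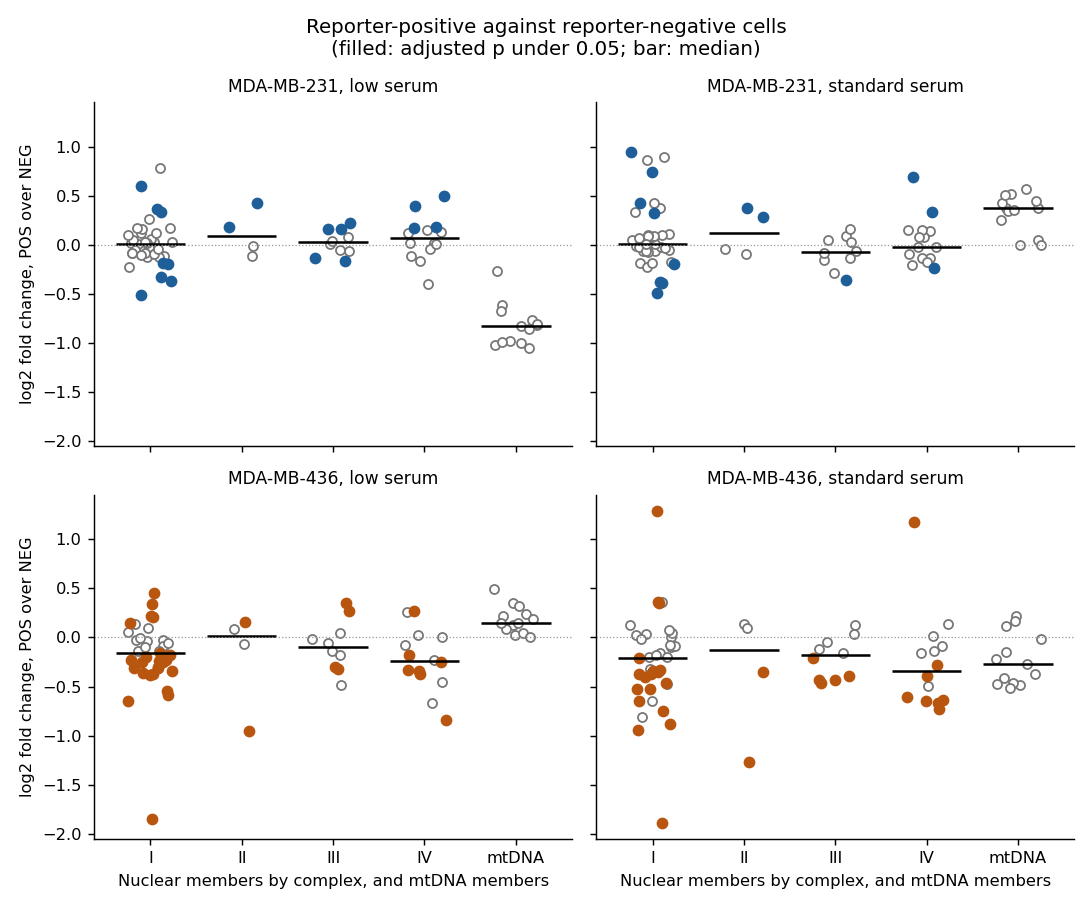
Log2 fold change of 7TGP-positive over 7TGP-negative cells (y axis) for nuclear members by complex and for the 13 mitochondrial genes (mtDNA), 1 point per gene, filled where called and with a bar at the median of the points; genes with a group at the floor are left out. The MDA-MB-231 nuclear genes scatter around 0, more MDA-MB-436 nuclear genes are filled below 0 (28 and 29) than above it (9 and 4), and all mitochondrial points are open.

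The nuclear members with the strongest differences in MDA-MB-436 cells were NDUFS6 and SDHA, both on the short arm of chromosome 5. NDUFS6, a zinc-binding accessory subunit of complex I (chr5:1801521-1816162, GRCh37), stood in low serum at 186 and 194 CPM in 7TGP-negative and 58.6 and 46.6 CPM in 7TGP-positive cells, and in standard serum at 202 and 218 against 49.8 and 63.4 CPM. Its log2 fold changes were -1.85 (SE 0.0827, adjusted p = 1.78e-10) and -1.89 (SE 0.0989, adjusted p = 4.26e-10). SDHA, the flavoprotein that oxidises succinate in complex II (chr5:218418-257197, GRCh37), stood at 854 and 846 against 447 and 432 CPM in low serum and at 745 and 726 against 302 and 309 CPM in standard serum. The log2 fold changes of SDHA were -0.95 (SE 0.0496, adjusted p = 8.61e-20) and -1.27 (SE 0.0748, adjusted p = 1.78e-10). No library of the 7TGP-positive cells reached a 7TGP-negative one for either gene, which adds no support, as both were named partly for these differences. Of the partners of SDHA, SDHB, the iron-sulfur subunit, was not called in low serum (-0.06) and was lower in standard serum (-0.35). SDHC had log2 fold changes of 0.16 (called, lost without replicate 1 of the 7TGP-negative cells and without either 7TGP-positive library) and 0.14 (not called), and SDHD of 0.08 and 0.10, neither called. SDHA shares 21.7% of its exon bases with another gene on the same strand and has near-identical pseudogene copies, so its count is less certain than that of NDUFS6.

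Besides these, the complex I subunits NDUFS4, NDUFB3 and NDUFA9 and the complex IV subunits COX6C, COX6B1 and COX5A were lower in both serum conditions. NDUFB3, a membrane-arm subunit, was at 47.2 and 50.3 CPM in 7TGP-negative and 34.7 and 30.0 CPM in 7TGP-positive cells in low serum (log2 fold change -0.59) and at 76.6 and 68.0 against 41.9 and 36.3 CPM in standard serum (-0.89). For NDUFS4, a matrix-arm subunit, the log2 fold changes were -0.64 and -0.75. COX6C was at 70.9 and 77.6 against 44.7 and 38.1 CPM in low serum and at 113 and 106 against 74.9 and 62.9 CPM in standard serum, with log2 fold changes of -0.84 and -0.67. The reporter groups did not overlap for any of these 3 genes, which were named for their low adjusted p, so this adds no support. Of the higher genes NDUFA10, an accessory subunit of complex I, rose from 91.4 and 87.4 to 126 and 118 CPM in low serum and from 94.6 and 100.5 to 119 and 132 CPM in standard serum, log2 fold changes of 0.45 and 0.36. In low serum the core complex III subunits UQCRC1 and UQCRC2 were higher as well, with log2 fold changes of 0.35 and 0.27, and neither was called in standard serum. The 2 higher DEGs of standard serum were genes of very low level: NDUFA4L2, known as a hypoxia-induced relative of NDUFA4, was at 0.696 and 1.17 against 1.83 and 2.47 CPM, and NDUFA7, of complex I, at 0.348 and 0.223 against 0.699 and 0.688 CPM. NDUFA7 shares 32.5% of its exon bases with another gene on the same strand. NDUFA4L2 lost its call without replicate 1 of the 7TGP-negative cells, and NDUFA7 lost its call without replicate 2 of those cells, without replicate 1 of the 7TGP-positive cells and with DESeq2.

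**Figure D4:**
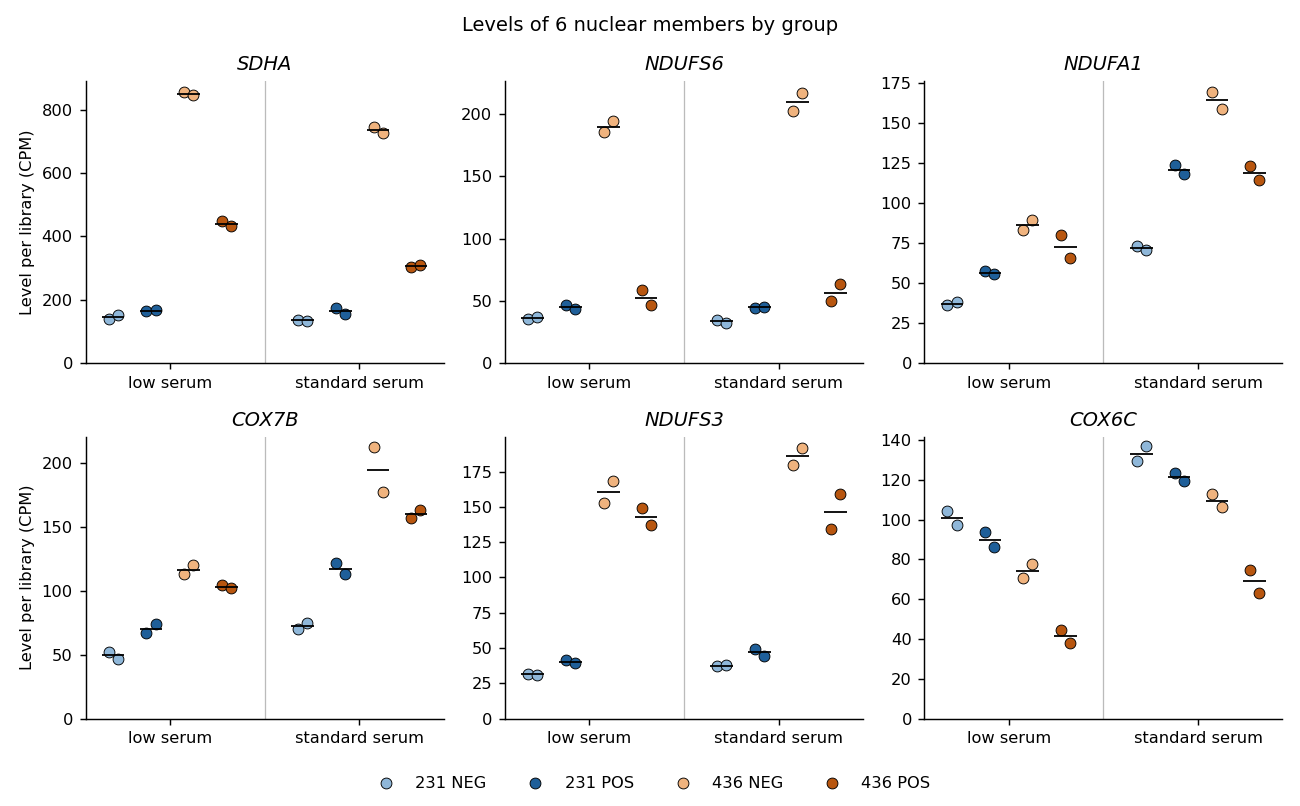
Level (CPM, y axes from 0, each panel on its own scale) of 6 nuclear members in every library, with low serum at the left and standard serum at the right of each panel and a bar at the mean of the 2 replicates. SDHA and NDUFS6 fall from 7TGP-negative to 7TGP-positive MDA-MB-436 cells (854 and 846 to 447 and 432 CPM for SDHA in low serum), while NDUFA1 and COX7B rise in MDA-MB-231 cells.

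Several called members lay close to the genes around them on the chromosome, which was examined after the values were seen for all but the DEGs. For each gene the median log2 fold change was taken over the 50 nearest tested genes on its chromosome that averaged 1 CPM or more. In MDA-MB-231 cells NDUFA1 had 0.60 and its neighbours 0.60 in low serum, with 0.74 against 0.69 in standard serum. COX7B had 0.50 and its neighbours 0.48 in low serum, with 0.69 against 0.71 in standard serum. The same closeness held for SDHD on chromosome 11 (0.42 and 0.42 in low serum, 0.38 and 0.40 in standard serum) and NDUFS3 on chromosome 11 (0.36 and 0.34, 0.32 and 0.38), and with lower levels for NDUFB6 (-0.33 and -0.30, -0.49 and -0.41) and NDUFA8 (-0.37 and -0.32, -0.38 and -0.42), both on chromosome 9. Around NDUFA1, 41 of the 50 neighbours were higher and 2 lower in low serum, and around NDUFA8, 38 were lower and 4 higher. COX7B2, on chromosome 4, stood apart, at 0.40 against 0.06 in low serum and 0.34 against -0.04 in standard serum.

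In MDA-MB-436 cells the neighbours of NDUFS6 had a median of -1.33 in both serum conditions, with 45 of 50 lower and none higher in low serum, and 46 lower and none higher in standard serum. The neighbours of SDHA, largely the same genes, had -1.37 in both. SDHA, at -0.95 in low serum, fell less than its neighbours and NDUFS6 fell more. NDUFA10, on chromosome 2, lay near its neighbours (0.45 and 0.37 in low serum, 0.36 and 0.41 in standard serum), as did NDUFA9 in low serum (-0.39 and -0.41). By contrast COX6C had -0.84 and -0.67 where its neighbours had -0.03 and 0.05, COX6B1 had -0.34 and -0.72 where its neighbours had -0.10 and -0.23, and NDUFA4L2 had 1.18 in standard serum where its neighbours had 0.03. Among called nuclear members of MDA-MB-436 cells, 34 of 37 (91.9%) in low serum, then 28 of 32 (87.5%) in standard serum, had the sign of their neighbours' median, against 69.7% and 69.5% of all called genes. In MDA-MB-231 cells it was 15 of 19 (78.9%) and 10 of 14 (71.4%), against 73.2% and 70.6%. These shares cover called genes that averaged 1 CPM or more, neighbouring genes are not independent, and the part of shared position in the differences was not tested.

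Whether the reporter groups differ in the same way in both lines was tested as the difference of their log2 fold changes, MDA-MB-231 minus MDA-MB-436, in the same model. In low serum 21 nuclear genes had a higher and 7 a lower difference, where 21.1% of all genes were higher and 24.6% lower, and in standard serum 22 were higher and 3 lower, against 18.8% and 22.4%. The median difference was 0.144 in low serum and 0.298 in standard serum, against -0.052 and -0.013 over all genes. Without replicate 1 of the 7TGP-negative MDA-MB-436 cells, 16 instead of 25 members were called in standard serum. Called in opposite directions in the 2 lines, with a called difference, were 9 genes in low serum (NDUFA1, NDUFS3, NDUFS6, SDHA, CYC1, UQCRC2, UQCRH, COX7A2 and COX7B) and 5 in standard serum (NDUFA1, NDUFS3, NDUFS6, SDHA and COX7B). The differences of NDUFS6 were the largest, 2.18 (SE 0.124, adjusted p = 3.57e-09) in low serum and 2.32 (SE 0.142, adjusted p = 4.31e-09) in standard serum. SDHA, at 139 and 152 CPM in 7TGP-negative and 163 and 168 CPM in 7TGP-positive MDA-MB-231 cells in low serum, had a log2 fold change of 0.185 there (-0.016 on the TPM scale) against -0.95 in MDA-MB-436 cells, a difference of 1.14. Of the genes called in opposite directions, calls in MDA-MB-231 cells in low serum were lost for SDHA, NDUFS6, UQCRC2, UQCRH and COX7A2 without replicate 1 of the 7TGP-negative cells, for NDUFS6, UQCRH and COX7A2 without replicate 2 of the 7TGP-positive cells, for NDUFS6 and UQCRC2 without replicate 1 of those cells, and for UQCRC2 and UQCRH without replicate 2 of the 7TGP-negative cells. UQCRC2 also lost its call without replicate 1 of the 7TGP-negative MDA-MB-436 cells. In MDA-MB-436 cells the low serum calls were lost for NDUFA1, NDUFS3 and COX7B without replicate 2 of the 7TGP-negative cells and for NDUFA1 and NDUFS3 without replicate 2 of the 7TGP-positive cells, and the standard serum call of COX7B without replicate 1 of the 7TGP-negative cells. The differences of NDUFA1, NDUFS3, NDUFS6, SDHA and COX7B held under every alternative tried. CYC1, the cytochrome c1 of complex III, was higher in MDA-MB-231 cells (log2 fold change 0.22) and lower in MDA-MB-436 cells (-0.30) in low serum, and UQCRC2, a core protein of complex III, went the other way (-0.14 and 0.27). No mitochondrial gene had a called difference: the median was -1.003 in low serum, with 1 unadjusted p under 0.05 and a lowest adjusted p of 0.0688, and 0.724 in standard serum, with none and 0.311.

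To let their sequence be compared, promoters are shown for 4 of the 5 members called in opposite directions in the 2 lines in both serum conditions, and for COX7B2, which was expressed in 1 line only. Each is the 250 bases before the gene's start in RefSeq (GRCh38.p14), 5′ to 3′ on the gene's strand, with matches to the NRF1 core GCGCANGCG, on either strand, in capitals. They lie at chr5:218070-218319 (SDHA, plus strand), chr5:1801157-1801406 (NDUFS6, plus), chrX:119871582-119871831 (NDUFA1, plus), chrX:77899218-77899467 (COX7B, plus) and chr4:46909246-46909495 (COX7B2, minus).
SDHA: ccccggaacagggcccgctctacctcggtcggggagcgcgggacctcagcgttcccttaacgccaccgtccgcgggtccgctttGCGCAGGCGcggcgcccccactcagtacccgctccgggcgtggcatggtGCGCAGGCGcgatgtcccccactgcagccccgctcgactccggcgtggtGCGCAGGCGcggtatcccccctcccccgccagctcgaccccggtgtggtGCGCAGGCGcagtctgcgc
NDUFS6: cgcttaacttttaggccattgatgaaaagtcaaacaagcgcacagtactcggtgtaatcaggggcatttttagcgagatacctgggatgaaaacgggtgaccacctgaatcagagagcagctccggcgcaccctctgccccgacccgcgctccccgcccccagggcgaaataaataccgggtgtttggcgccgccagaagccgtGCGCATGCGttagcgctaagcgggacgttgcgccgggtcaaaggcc
NDUFA1: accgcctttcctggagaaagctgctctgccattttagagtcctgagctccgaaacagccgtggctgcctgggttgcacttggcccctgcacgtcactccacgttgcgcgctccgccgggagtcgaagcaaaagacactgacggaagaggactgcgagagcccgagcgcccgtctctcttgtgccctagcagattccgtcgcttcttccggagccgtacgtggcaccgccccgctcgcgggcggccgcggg
COX7B: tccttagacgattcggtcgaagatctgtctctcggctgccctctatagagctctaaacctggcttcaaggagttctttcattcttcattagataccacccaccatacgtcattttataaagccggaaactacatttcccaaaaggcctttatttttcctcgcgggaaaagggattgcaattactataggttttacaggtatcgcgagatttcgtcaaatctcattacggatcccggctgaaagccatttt
COX7B2: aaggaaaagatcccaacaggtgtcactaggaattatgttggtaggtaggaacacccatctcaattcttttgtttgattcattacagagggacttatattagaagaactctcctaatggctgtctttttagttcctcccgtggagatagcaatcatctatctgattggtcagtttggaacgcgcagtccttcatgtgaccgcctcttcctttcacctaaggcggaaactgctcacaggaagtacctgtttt

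SDHA carries 4 matches, which start 166, 117, 68 and 19 bases before the gene's start, NDUFS6 carries 1, at 46 bases, and the other 3 carry none in this window. Of the 66 nuclear members 54 had a promoter in the RefSeq table, and in these windows of 250 bases before and 50 after the start, 16 (29.6%) held the NRF1 core, against 8.05% of 27305 promoters in the table and 12.8% of those of 12754 tested genes. The ETS site CCGGAAGT was in 8 (14.8%) against 4.44% and 7.36%, and the YY1 site AAGATGGCG in 7 (13%) against 1.85% and 3.29%. At least 1 of the 3 was in 26 (48.1%), against 13.1% and 21.3%. The TCF/LEF core ATCAAAG, which is part of the site used in the reporter, was in none of the 54, against 2.64% and 1.54%. At shares this low few matches could be found among 54 promoters, so their absence tells little. All motifs were searched on both strands as exact letters, do not contain one another, and a match is a description of the sequence and not a site shown to be bound.

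Between the 7TGP-negative cells of the 2 lines, nuclear members were mostly lower in MDA-MB-231, while mitochondrial genes lay higher there in low serum. Per the methods the lines were kept in different media, whereas the labels name 1 medium for both, so line and medium cannot be told apart. Of the 66 nuclear genes 42 were lower and 15 higher in MDA-MB-231 than in MDA-MB-436 cells in low serum, where 39.6% of all genes were lower and 39.6% higher, and 36 were lower and 11 higher in standard serum, against 41.4% and 37.3%. The median log2 fold change was -0.607 in low serum and -0.621 in standard serum, against 0.01 and -0.09 over all genes. On the TPM scale 48 were lower and 5 higher in low serum, where 34.6% of the calls over all genes were higher instead of 50%. DEGs were 21 lower and 2 higher nuclear genes in low serum and 22 lower and 3 higher in standard serum, where 41.9% and 46.7% of all genes were DEGs. By complex, low serum gave 24 lower and 8 higher genes of complex I, 3 and 1 of complex II, 5 and 3 of complex III and 10 and 3 of complex IV.

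NDUFB9, an accessory subunit of complex I, had the lowest level relative to MDA-MB-436, at 24.6 and 24.3 against 168 and 196 CPM in low serum and 41.7 and 35.8 against 317 and 277 CPM in standard serum. Its log2 fold changes were -2.90 (adjusted p = 1.9e-18) and -2.94 (adjusted p = 1.82e-15). Other genes lower by more than the DEG threshold in both serum conditions included SDHA (-2.55 and -2.45), NDUFS6 (-2.40 and -2.64), NDUFS3 (-2.35 and -2.31), NDUFA9 (-2.18 and -2.39), CYC1 (-2.08 and -1.69) and UQCRH, the hinge protein of complex III (-1.83 and -1.29). UQCRHL is a near-identical copy of UQCRH, so reads may be split between them. Of the genes higher in MDA-MB-231 cells, NDUFA12, an accessory subunit of complex I, had log2 fold changes of 0.83 and 1.05, and NDUFV2, a core subunit with an iron-sulfur cluster, of 0.99 and 3.48. NDUFV2 was at 4.35 and 4.94 against 0.377 and 0.447 CPM in standard serum and shares 28.4% of its exon bases with another gene on the same strand. The neighbours of NDUFB9 had medians of -0.93 and -0.66, those of NDUFS3 of -0.84 and -1.18, and those of SDHA of -1.82 and -1.73, each smaller in size than the difference of the member itself.

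Mitochondrial genes lay higher in 7TGP-negative MDA-MB-231 than in MDA-MB-436 cells in low serum, all 13 above 0 with a median log2 fold change of 0.893, and 4 were called: MT-ND3 (1.27), MT-CO2 (1.42), MT-ATP6 (1.52) and MT-ATP8 (1.58). MT-CO2 was at 411 and 575 CPM in MDA-MB-231 and 199 and 169 CPM in MDA-MB-436 cells. In standard serum the median was 0.048 and 1 gene was called, MT-ND5, which was lower at 143 and 276 against 630 and 734 CPM (log2 fold change -1.71, adjusted p = 0.0343). The low serum count was 2 without replicate 1 and 0 without replicate 2 of the 7TGP-negative MDA-MB-231 cells, 0 without either 7TGP-negative MDA-MB-436 library, 2 in a fit blocked on replicate number, and 0 on the TPM scale. The standard serum count was 3 without replicate 2 of the 7TGP-negative MDA-MB-231 cells, 1, a higher gene in place of MT-ND5, without replicate 1 of those cells, and 0 without any 1 of the 4 MDA-MB-436 libraries or in the blocked fit.

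**Figure D5:**
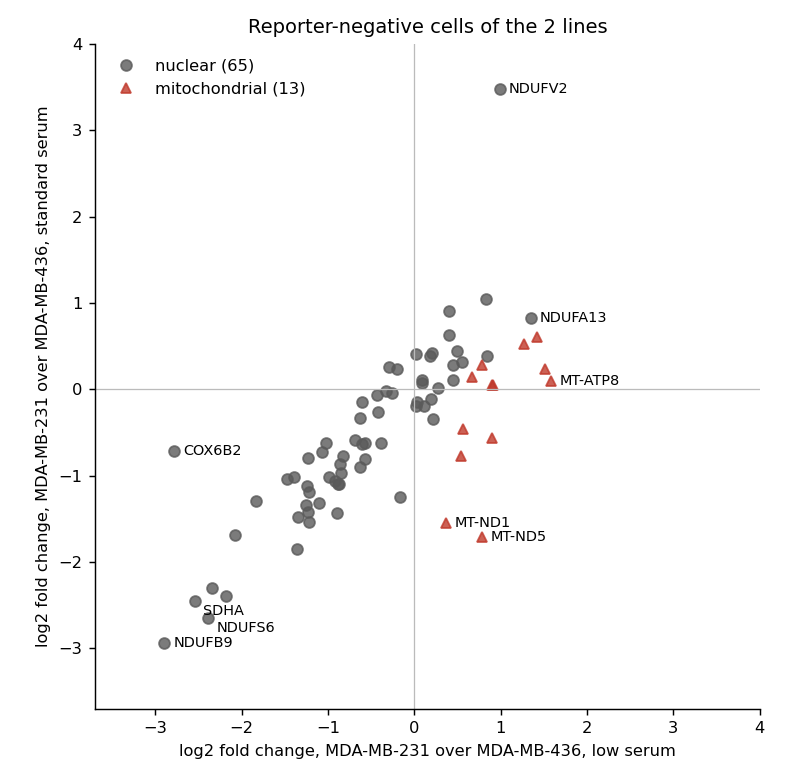
Log2 fold change of 7TGP-negative MDA-MB-231 over MDA-MB-436 cells in low serum (x axis) and standard serum (y axis) for 65 nuclear genes (grey circles, COX7B2 left out) and 13 mitochondrial genes (red triangles). Nuclear genes lie along the diagonal and mostly below 0 in both, as NDUFB9 at -2.90 and -2.94, whereas all mitochondrial genes lie above 0 in low serum and spread from -1.71 to 0.60 in standard serum.

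COX7B2, a relative of COX7B known for expression in testis, was the member that separated the lines completely. It held 418 and 400 counts in 7TGP-negative and 540 and 490 in 7TGP-positive MDA-MB-231 cells in low serum, and 0 and 3 against 1 and 0 counts in the same MDA-MB-436 cells. The ratio was 296 (95% interval 101.1 to 1441, counting error only) for 7TGP-negative cells. In standard serum it held 629 and 507, and 750 and 769 counts in MDA-MB-231 cells and 0 in all 4 MDA-MB-436 libraries, at least 232-fold higher in 7TGP-negative and at least 343-fold higher in 7TGP-positive cells against a floor of 3 counts per library. Per transcript length COX7B2 was not a trace gene: it stood at 40.3 and 40.0 TPM in 7TGP-negative MDA-MB-231 cells in low serum, beside 37.6 and 34.0 TPM for COX7B. COX7B itself stood at 113 and 109 TPM in 7TGP-negative MDA-MB-436 cells. The other isoforms that passed the count minimum were low in every library: COX6B2, known from testis, did not pass 1.24 TPM, beside 226 to 690 TPM for COX6B1, and NDUFA4L2 did not pass 3.55 TPM, beside 61.8 to 371 TPM for NDUFA4.

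Related mitochondrial gene lists are given beside the shares called among all genes. In MDA-MB-436 cells these shares were 26.6% higher and 25.3% lower in low serum, against 26.1% and 23.4% in the standard serum libraries, and in MDA-MB-231 cells 19.0% and 19.9%, and 16.8% and 16.2%. Of 18 nuclear ATP synthase subunits, 1 was higher and 6 lower in 7TGP-positive MDA-MB-436 cells in low serum and 2 higher and 8 lower in standard serum, with medians of -0.097 and -0.258, the lower ones being 33.3% and 44.4% of the list. ATP5MC3, a c-ring subunit, was at 382 ± 30.2 CPM in 7TGP-negative and 173 ± 1.78 CPM (SD, n = 2) in 7TGP-positive cells in standard serum (log2 fold change -1.14). In MDA-MB-231 cells 2 of these 18 were higher and 4 lower in low serum and 1 higher and 3 lower in standard serum. In MDA-MB-436 cells 7 of 18 complex I assembly factors (38.9%) were higher in each serum condition, with 4 lower in low serum and 3 in standard serum. Of 21 complex IV assembly factors 5 (23.8%) and 8 (38.1%) were higher and 1 and 3 lower. CYCS, the cytochrome c that carries electrons from complex III to complex IV, was higher in all 4 reporter comparisons. Its log2 fold change was 0.20 in each line in low serum, and in standard serum it was 0.25 in MDA-MB-231 and 0.74 in MDA-MB-436 cells.

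Among 26 factors of mitochondrial DNA and RNA, 10 were higher and none lower in 7TGP-positive MDA-MB-231 cells in low serum, where 12 had an unadjusted p under 0.05, and 5 were higher and 1 lower in standard serum. The 10 are 38.5% of the list, beside 19.0% of all genes. In MDA-MB-436 cells 9 (34.6%) were higher and 6 (23.1%) lower in low serum and 8 (30.8%) higher and 4 (15.4%) lower in standard serum, beside the shares of all genes given above. TFAM, which packages and transcribes mitochondrial DNA, was higher in 7TGP-positive MDA-MB-231 cells in low serum (74.2 ± 3.45 against 92.2 ± 9.17 CPM). In that comparison all 13 mitochondrial genes lay below 0 without a call, and a link between TFAM and these genes was not tested. The helicase TWNK was at 24.4 ± 1.58 and 56.4 ± 5.76 CPM in 7TGP-negative and 7TGP-positive MDA-MB-436 cells in standard serum. PPARGC1A, the coactivator PGC-1α that is known to raise respiratory chain genes, was at 0.538 ± 0.0801 CPM in 7TGP-negative and 17.8 ± 0.779 CPM in 7TGP-positive MDA-MB-436 cells in low serum (log2 fold change 5.05, SE 0.172, adjusted p = 4.6e-26). In standard serum it was at 0.563 ± 0.0244 and 3.60 ± 0.0173 CPM (log2 fold change 2.67). In the same comparisons 28 and 29 nuclear members were lower, and NRF1, the factor behind the NRF1 site, had log2 fold changes of 0.00 and 0.13, neither called. The part of PPARGC1A or NRF1 in the levels of the members was not tested. Of the 8 biogenesis regulators, 3 were higher and 2 lower in each of these comparisons. Besides PPARGC1A the higher ones were GABPA, an ETS-family factor, with log2 fold changes of 0.34 and 0.42, and PPRC1, with 0.41 and 0.68. For YY1 they were 0.12 and 0.13, neither called. The lower ones were PPARGC1B, a relative of PPARGC1A, at 27.4 against 22.9 CPM in low serum and 35.5 against 25.9 CPM in standard serum, and ESRRG, an oestrogen-related receptor at under 1 CPM, with log2 fold changes of -1.02 and -2.17. In MDA-MB-231 cells PPARGC1A was at 10.1 ± 0.0236 and 9.69 ± 0.556 CPM in low serum, which was not called. In standard serum PPARGC1A was called higher in 7TGP-positive MDA-MB-231 cells (log2 fold change 0.413). Of 76 mitochondrial ribosomal proteins in low serum and 75 in standard serum, 15 were higher and 21 lower, and 16 higher and 9 lower, in 7TGP-positive MDA-MB-436 cells, with medians of -0.008 and -0.002. The lower ones are 27.6% and 12% of the list, beside 25.3% and 23.4% of all genes.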

How the data were processed

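RNA-Seq of 16 libraries, 2 biological replicates in each of 8 groups, was analysed. The authors sorted 7TGP reporter cells by eGFP, checked reads with FastQC and RseQC, aligned them to ribosomal RNA with Bowtie and to hg19 with STAR, using Gencode v19 (STAR 2.6.1a, edgeR 3.22.5 and limma are named in the submitters' processing notes). They deposited raw read counts per gene from STAR and TPM, whose calculation is not given in the sources used here. The version of the mitochondrial sequence is not given there either. No column of another sample was present (0).

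Counts of protein-coding genes with at least 10 counts over a serum condition were fitted per serum condition over its 4 groups with edgeR 4.0.16 (robust quasi-likelihood, TMM), with Benjamini-Hochberg adjustment over all genes tested. With 2 replicates a group, p-values measure only the spread between these libraries. Standard errors were taken from the fold change and its F statistic (size of the log2 value over root F). DESeq2 1.42.0, limma 3.58.1 on log2(TPM + 1), other scalings, no filter, a replicate block and leaving out each library were alternatives. The model was tested on simulated data. R 4.3.3, Python 3.11.15, pandas 2.3.3, scipy 1.17.1 and matplotlib 3.10.9 were used. Intervals and floors of 3 counts cover counting error only.

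The members, gene lists and tests were chosen with earlier results of these data known. Genes were named by a rule: the 13 mitochondrial genes, complex II, CYC1, member DEGs of the reporter comparisons, the 3 lowest adjusted p per direction of each reporter comparison and 5 per direction between lines (at least 10 counts in every library), isoform pairs, members called in opposite directions in the lines, and DEGs of the related lists. Promoters were RefSeq GRCh38.p14, other coordinates GRCh37. The lines' mutations, 1 leukocyte marker and the named result of 1 complex I member are not reported here. SCO2 of the complex IV assembly list had no matching row and was not analysed here.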

Additional observations from a re-analysis of the deposited data

Results flagged for a closer look

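The reporter response, 7TGP-positive over 7TGP-negative, differed between the lines by a test of the difference itself (MDA-MB-231 minus MDA-MB-436 log2 fold change, called with edgeR) for the members listed here, and these differences were not weighed further.

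In low serum the difference was above 0 for NDUFS6 (2.18), SDHA (1.14), NDUFA1 (0.84), NDUFV2 (0.81), NDUFS4 (0.69), COX7B (0.675), COX6C (0.67), CYC1 (0.52), NDUFS3 (0.52), UQCRH (0.485), NDUFB3 (0.47), COX7A2 (0.42), NDUFB7 (0.39), NDUFA12 (0.37), SDHD (0.34), COX6B1 (0.34) and COX7C (0.21). It was below 0 for NDUFA10 (-0.53), NDUFB8 (-0.51), UQCRC2 (-0.41), SDHC (-0.28) and UQCRC1 (-0.27).

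In standard serum it was above 0 for NDUFS6 (2.32), SDHA (1.55), NDUFA1 (1.21), COX7B (0.97), NDUFB3 (0.88), NDUFS4 (0.69), NDUFS3 (0.66), COX8A (0.585), COX6C (0.53), COX6B1 (0.49), UQCRH (0.37), NDUFA12 (0.35), CYC1 (0.32), NDUFB2 (0.31), SDHB (0.31), COX7A2 (0.30) and COX4I1 (0.295). It was below 0 for NDUFA10 (-0.34) and NDUFB6 (-0.33). Of these genes COX8A shares 35.4% of its exon bases with another gene on the same strand.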

How the results depend on the processing

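The alternatives changed the medians and the mitochondrial counts more than the calls of single members. Of 2855 alternative values for the 190 called results of single members, 2614 kept direction and call, 233 lost the call and 8 changed direction, and of 3729 for the 242 results that were not called, 3561 stayed so, 164 became calls and 4 changed direction. All changes of direction came with log2(TPM + 1) in limma in low serum, a scale on which the median of all genes moved by -0.116 in MDA-MB-231, -0.169 in MDA-MB-436 and -0.204 between the lines, and the cause was not tested. These were SDHA (-0.016), UQCRH (-0.04), COX4I1 (-0.023) and COX7A2 (-0.032) in MDA-MB-231, SDHC (-0.083) and NDUFA4 (-0.24) in MDA-MB-436, and NDUFB6 (-0.31), SDHD (-0.215), UQCRB (-0.004), UQCRC1 (-0.37), COX6B1 (-0.382) and COX7C (-0.001) between the lines. On that scale the nuclear medians were -0.179 in MDA-MB-231, -0.384 in MDA-MB-436 and -0.886 between the lines in low serum and -0.122 in MDA-MB-436 in standard serum, 18 members had a called difference of the reporter responses in low serum instead of 28, and 0 mitochondrial genes in low serum and 4 in standard serum were called between the lines. The nuclear median of MDA-MB-436 in low serum was -0.204 with DESeq2 or its size factors, -0.119 with library totals and -0.21 with the mitochondrial genes left out of the scaling. Library totals gave nuclear medians of -0.678 and -0.833 between the lines, in low and standard serum, the latter with a shift of all genes of -0.212, and 2 mitochondrial calls in standard serum. DESeq2 called 3 mitochondrial genes in MDA-MB-231 in low serum and 2 between the lines in standard serum.

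Leaving out 1 library gave 11 to 23 nuclear calls in MDA-MB-231 in low serum, with medians from -0.013 to 0.054, and 8 to 18 calls in standard serum. In MDA-MB-436 it gave 24 to 42 calls and medians from -0.284 to -0.067 in low serum, and medians from -0.345 to -0.21 in standard serum. Between the lines nuclear medians ran from -0.636 to -0.577 in low serum and from -0.718 to -0.549 in standard serum. Mitochondrial calls ran from 0 to 4 in MDA-MB-231 in low serum, and between the lines from 0 to 6 in low serum and 0 to 3 in standard serum. Mitochondrial medians ran from -1.398 to -0.45 in MDA-MB-231 in low serum, from -0.093 to 0.957 in MDA-MB-231 and from -0.647 to 0.033 in MDA-MB-436 in standard serum, and from -0.681 to 0.558 between the lines in standard serum. The called differences of the reporter responses in standard serum ran from 16 to 30.

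Samples with the same replicate number did not deviate together in every pair of groups, with correlations of -0.21 to 0.08 in low serum and -0.05 to 0.405 in standard serum, where 5 of the 6 pairs of groups were over 0.1. The labels do not say that a number marks a shared batch, and the numbers were not taken as pairing the samples. With a replicate block 20 nuclear genes were called in MDA-MB-231 and 37 in MDA-MB-436 in low serum, 17 and 35 in standard serum, and 2 and 0 mitochondrial genes between the lines in low and standard serum. Members with few counts, such as COX7B2, NDUFA4L2 and NDUFA7, are limited by depth, and the mitochondrial genes by the spread of 2 replicates.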
